A study of Homo sapiens and Mus musculus with 56 samples.

Results

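The tumours described here grew under the skin of nude mice from 5 human glioblastoma lines, and their RNA was hybridised to a mouse array, whose probes are designed on the genes of the host. The arrays compared were the 14 mouse arrays of vehicle-treated tumours among the 56 arrays of the study. Tumours of U87M2 (3 arrays), U118 (3 arrays) and SF295 (2 arrays), whose human vehicle arrays showed high hepatocyte growth factor (HGF), formed the HGF-high group of 8 arrays. Tumours of DBM2 (3 arrays) and U251M2 (3 arrays), whose human arrays showed low HGF, formed the HGF-low group of 6 arrays. On the log2 scale of the deposited probe-set intensities, human HGF was 11.46 ± 0.06 (SD, n = 3) in U87M2, 10.20 ± 0.18 (n = 3) in U118 and 10.03 ± 0.17 (n = 2) in SF295, against 5.37 ± 0.06 (n = 3) in DBM2 and 5.14 ± 0.07 (n = 3) in U251M2. These human values chose the groups and carry no test.

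Per the labels, 500000 cells were placed in the flank of each mouse, and mice of all 5 lines were given vehicle (MC 400 at 0.5% and Tween 80 at 0.05%) over 7 days. Another 14 mouse arrays hold tumours of the same lines from mice given V-4084, an inhibitor of the MET kinase, at 30 mg per kg for 7 days (U87M2, U118 and DBM2 3 arrays each, SF295 3 and U251M2 2). They took no part in choosing genes by gap or from the lists, and serve below as a second set of arrays of the same 5 lines. They entered only the choice of the genes named by the interaction test. Nude mice lack a thymus, so T cells are largely missing from the host side of these tumours. The age of the mice was not analysed here, and nothing says that the repeats of a line were separate animals, so p-values measure only the spread between these arrays, which may be technical. The labels name the tissue a brain tumour, although the tumours were not grown in the brain. The human arrays are labelled as cultured cells of the lines given DMSO, and the labels do not say whether they share material with the tumours.

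HGF is a secreted protein made mostly by stromal cells, and MET is its receptor tyrosine kinase on epithelial, endothelial and many tumour cells. HGF is made as an inactive precursor that proteases cut, and binding drives growth, movement and survival of the receiving cell. A tumour in a mouse also holds host vessels, pericytes, fibroblasts and macrophages, which together lay down and remodel the matrix. In these tumours, macrophage genes were higher on the mouse arrays of the HGF-high lines, and genes of the collagen matrix and of the Hox family were lower, each as counted below.

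The host's own Hgf gene did not divide the groups the way the human gene did. Mouse Hgf was 6.80, 7.14 and 7.11 in U87M2, 6.99, 6.80 and 6.96 in U118, 7.42 and 7.29 in SF295, 7.03, 6.98 and 6.79 in DBM2, and 6.73, 6.84 and 7.16 in U251M2. The groups overlapped, with SF295 alone above the rest, and the difference of HGF-high minus HGF-low with lines weighing equally was 0.18 (SE 0.08, limma, Benjamini-Hochberg (BH) adjusted p = 0.092). On the V-4084 arrays it was 0.30 (SE 0.08, limma adjusted p = 0.0164). Mouse Met ran from 6.42 to 7.02 with a median of 6.68 in the HGF-high group, and from 5.81 to 6.48 with a median of 6.16 in the HGF-low group. The 3 U251M2 arrays, at 5.93, 5.81 and 5.88, were the lowest of the 14, and the ranges of the groups overlapped slightly. Met was higher by 0.54 (SE 0.06, limma adjusted p = 1.38e-05), or 1.45-fold. The adjusted p was 0.115 when the line was a random block, that is, when arrays of 1 line were allowed to be alike. On the V-4084 arrays Met differed by 0.52 (SE 0.06, limma adjusted p = 1.12e-05), and there every HGF-high array lay above every HGF-low array.

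**Figure D1:**
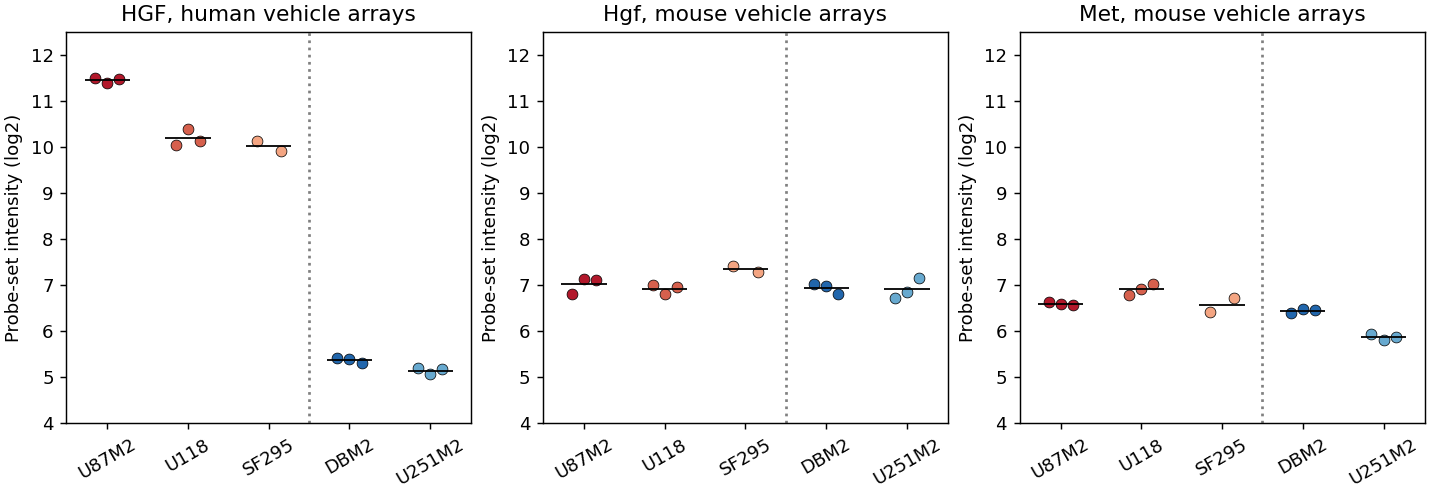
Probe-set intensity (log2, vertical axis) of human HGF on human vehicle arrays and of mouse Hgf and Met on mouse vehicle arrays, for the 5 lines. Points are arrays, short lines are line means, and the dotted line divides HGF-high lines (left) from HGF-low lines (right); human HGF parts the lines by design, while the mouse Hgf points of the groups overlap.

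Of the HGF-MET axis list, which holds the ligand, the receptor, activating proteases, their inhibitors and adaptors, 17 of 18 genes were measured. Met, the co-receptor Nrp1, and the MET adaptors and regulators Gab1 and Cbl were higher, which is 4 of 17, where 15.1% of all 19938 genes were higher at a limma adjusted p under 0.05. The tissue plasminogen activator Plat, the HGF-activating protease hepsin (Hpn), the urokinase receptor Plaur, the HGF-like ligand Mst1 and its receptor Mst1r were lower, which is 5 of 17, where 23.7% of all genes were lower. The median difference of the list was -0.06, beside -0.07 for all genes, and 0 of 17 were called with the line as a random block. Plat ran from 7.47 to 8.39 in the HGF-high arrays and from 8.43 to 9.21 in the HGF-low arrays, so that no array overlapped, and it fell by 0.76 (SE 0.10, limma adjusted p = 3.11e-05; adjusted p = 0.0944 with the line as a random block). Nrp1, a co-receptor of several growth factors, was higher by 0.42 (SE 0.07, limma adjusted p = 0.00044).

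Differences over arrays did not always separate every line. Over the 14 arrays, limma called 3005 of 19938 genes higher and 4716 lower, and 1456 and 2704 of these separated every line mean. Over all genes, called or not, every HGF-high line mean lay above every HGF-low line mean for 1865 (9.35%) and below for 3823 (19.2%). Every single HGF-high array lay above every HGF-low array for 230 genes (1.15%) and below for 359 (1.80%). A fit on the 5 line means, 3 against 2, called 0 genes at an adjusted p under 0.05 with limma, while 1596 genes had an unadjusted p under 0.05, of which 741 (3.72%) were higher and 855 (4.29%) lower. Taking the line as a random block (the block fit), limma estimated a correlation of 0.484 between arrays of a line and called 164 genes, 66 higher and 98 lower, with 2593 at an unadjusted p under 0.05. That fit takes 1 correlation for all genes and its degrees of freedom from arrays. It is therefore less strict on lines than the fit on line means. For a single gene, 3 lines against 2 cannot reach an exact permutation p below 0.1. The counts over arrays compare these 5 lines and say nothing of other lines.

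U87M2 was the line that most often broke the division. Among the 3005 genes called higher, 1549 did not separate the line means, and in 1249 of them U87M2 was the lowest of the HGF-high lines. Among the 4716 called lower, 2012 did not separate them, and in 1822 U87M2 was the highest. The root-mean-square difference over all genes was 0.219 (log2) between U87M2 and U251M2 and 0.255 between U87M2 and DBM2, against 0.354 between U87M2 and U118 and 0.383 between U87M2 and SF295. By this measure the U87M2 tumours with vehicle lay nearer to the HGF-low tumours than to the other HGF-high tumours, although U87M2 had the highest human HGF. U118 and SF295 differed by 0.282 and DBM2 and U251M2 by 0.215. With V-4084, U87M2 differed by 0.277 from U118, 0.405 from SF295, 0.282 from DBM2 and 0.272 from U251M2, so U118 was about as near as the HGF-low lines. On the human vehicle arrays U87M2 lay nearer to U118 (0.649) and SF295 (0.641) than to DBM2 (0.697) and U251M2 (0.742). Without U87M2, 1659 mouse genes lay above and 2856 below in every vehicle array.

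The spread of values within an array moved with these lines. The SD over genes ran from 1.36 to 1.57 on the HGF-high arrays and from 1.37 to 1.41 on the HGF-low arrays, and its line mean was 1.48 in U118 and 1.52 in SF295, against 1.39 in U87M2, 1.397 in DBM2 and 1.38 in U251M2. Genes at or below the platform median of 6.49 had a median difference of -0.12, with 2792 of 9893 called lower and 474 higher, while those above it had a median of 0.02, with 1924 of 10045 lower and 2531 higher. Of the calls over arrays, 38.9% were higher as deposited, 49.2% after a further quantile normalization, 61.7% after centring each array on its median and 56.4% among genes above the platform median. The part of the array spread in the calls on dim genes was not tested, so for the main lists below the count among genes above the platform median, called bright genes, is given too. Each vehicle count of a list below stands beside the 15.1% of all genes called higher and the 23.7% called lower.

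The 15 genes with the widest gap between the nearest line means were chosen on these vehicle arrays in each direction, so their vehicle values are a description, and the test given is that on the V-4084 arrays, which are other arrays of the same lines. Among all genes, limma called 13.2% higher and 12.2% lower there. Of the 15 higher genes 14 were called higher on the V-4084 arrays, and of the 15 lower genes all 15 were called lower. Every V-4084 array of the groups was apart in 10 of the 15 higher genes, beside 1.87% of all genes, and in 15 of the 15 lower genes, beside 2.27%. Of the whole set of 230 genes separated upward, 167 (72.6%) were called the same way with V-4084 and 62 were separated again, which is 27.0% of the vehicle set and 16.6% of the V-4084 set. Of the 359 separated downward, 255 (71.0%) were called the same way and 153 were separated again, which is 42.6% and 33.8%. None of either set was called in the opposite direction by limma.

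**Figure D2:**
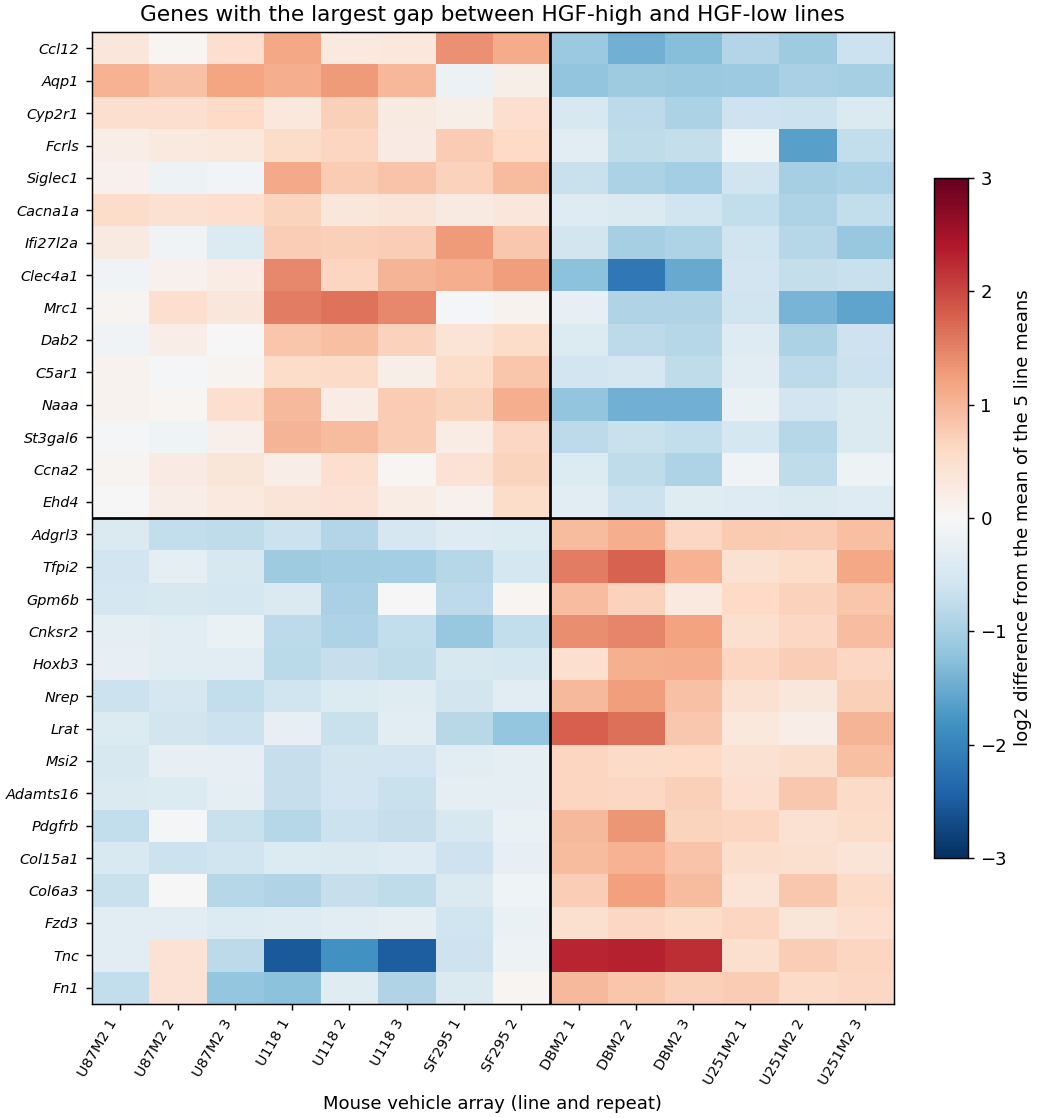
Heat map of the 15 higher and 15 lower genes with the widest gap between nearest line means, over the 14 mouse vehicle arrays. Colour is the log2 difference of an array from the mean of the 5 line means (red above, blue below), the vertical line divides HGF-high from HGF-low arrays and the horizontal line the 2 sets; Tnc in U118 is the deepest blue and Tnc in DBM2 the deepest red.

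Among the higher genes, Ccl12 stood first, a mouse chemokine that draws monocytes. It was 7.17, 6.90 and 7.34 in U87M2, 7.98, 7.11 and 7.15 in U118 and 8.21 and 7.94 in SF295, against 5.72, 5.40 and 5.54 in DBM2 and 5.96, 5.75 and 6.18 in U251M2. The lowest HGF-high array lay well above the highest HGF-low array, and the difference of the groups was 1.78, or 3.44-fold. On the V-4084 arrays it was 1.65 (SE 0.18, limma adjusted p = 5.24e-06), although the arrays overlapped there, since U87M2 repeat 3 was at 6.30 and U251M2 reached 6.59. Ccl2, a closely related monocyte chemokine and part of the chemokine list, was 1.07 higher (SE 0.09, limma adjusted p = 9.34e-07), with every array apart. It differed by -1.92 between the same lines on the human arrays, which is the opposite direction.

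Aqp1, a water channel of red cells and of the endothelium of small vessels, was 9.55, 9.37 and 9.68 in U87M2, 9.59, 9.78 and 9.49 in U118 and 8.31 and 8.67 in SF295. In DBM2 it was 7.31, 7.42 and 7.38, and in U251M2 7.41, 7.51 and 7.51. The HGF-low arrays lay within a narrow band, and SF295 was between that band and the other HGF-high lines. The difference was 1.79 (3.46-fold) with vehicle and 1.94 (SE 0.08, limma adjusted p = 4.52e-10) with V-4084. Human AQP1 differed by -0.12 between the same lines.

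Several other genes of this set belong to macrophages. Siglec1 (CD169), a sialic acid receptor of tissue macrophages, ran from 8.38 to 9.66 with a median of 9.26 in the HGF-high arrays and from 7.51 to 7.94 with a median of 7.59 in the HGF-low arrays. Mrc1 (CD206), the mannose receptor, ran from 8.67 to 10.35 against 7.13 to 8.47, and was highest in U118 at 10.24, 10.35 and 10.16. Clec4a1, a lectin receptor of myeloid cells, ran from 6.85 to 8.40 against 4.82 to 6.39. These 3 did not overlap between groups with vehicle, and their differences with V-4084 were 1.35 for Siglec1 (limma adjusted p = 4.54e-07), 1.34 for Mrc1 (limma adjusted p = 8.77e-06) and 1.74 for Clec4a1 (limma adjusted p = 3.05e-08). C5ar1, the receptor of complement fragment C5a on myeloid cells, ran from 7.19 to 8.07 against 6.46 to 6.92. Its V-4084 difference was 0.99 (SE 0.11, limma adjusted p = 4.91e-06).

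The remaining higher genes were of mixed kinds. Fcrls, an Fc receptor-like gene of mouse macrophages and microglia, and Ifi27l2a, an interferon-induced gene, differed by 1.20 and 1.404 with vehicle and by 0.84 and 1.09 with V-4084. Cyp2r1, a vitamin D 25-hydroxylase, and Cacna1a, a neuronal calcium channel subunit, differed by 1.09 and 1.06, and their human counterparts by 1.96 and 2.51 in the same direction. Dab2, an endocytic adaptor, differed by 1.11 at the probe set used, while the other probe set of the gene gave -0.09. Naaa, a lysosomal amidase, St3gal6, a sialyltransferase, and Ehd4, an endosome protein, differed by 1.46, 1.11 and 0.71. Of the 11 with a human gene of the same symbol 6 were called in the same direction on the human arrays and 1, Ehd4 (-1.27), in the opposite. Ccna2, cyclin A2 of dividing cells, differed by 0.86 with vehicle and by 0.20 with V-4084 (SE 0.13, limma adjusted p = 0.262), and was the gene of the 15 not called there.

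Macrophage and monocyte genes of a list, chosen with earlier results of these data known, were higher as a group. The list holds Mrc1, already named above by its gap. Of 19 measured genes 17 were higher and 0 lower, with a median difference of 0.83, and 5 of them (Mrc1, C1qc, Cd68, Itgam and Cd14) were apart in every array. Cd163, a scavenger receptor, and Mertk, a receptor for apoptotic cells, differed by 0.07 and 0.08 and were not called. The mean of the list ran from 8.58 to 9.69 in the HGF-high arrays and from 8.22 to 8.55 in the HGF-low arrays. SF295 was highest (9.63 and 9.69), U118 next (9.27 to 9.47), and U87M2 (8.58 to 8.67) lay just above the highest U251M2 array. In bulk tumours, fewer cells of a type and less RNA per cell cannot be told apart. On the V-4084 arrays 18 of 19 were higher and 0 lower. Of 18 bright genes 17 were higher with vehicle. With line as a block 5 of 19 were called by limma.

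Cd68, a lysosomal protein of macrophages, was 9.78, 9.88 and 9.61 in U87M2, 10.64, 10.53 and 10.42 in U118 and 10.71 and 10.51 in SF295, against 8.94 to 9.57 in the HGF-low arrays, so U87M2 was nearest to the HGF-low lines. It differed by 1.16 (SE 0.08, limma adjusted p = 1.22e-07). C1qc, a chain of complement C1q that macrophages make, was 10.32, 10.07 and 10.07 in U87M2, 11.09, 10.93 and 10.95 in U118, and 11.39 and 11.27 in SF295. In DBM2 it was 9.88, 9.70 and 9.73, and in U251M2 9.76, 9.69 and 9.08. C1qc differed by 1.18 (SE 0.10, limma adjusted p = 5.65e-07), while human C1QC differed by 0.08. Of the 16 macrophage genes with a human gene of the same symbol, 6 were called higher and 1 lower between these lines on the human arrays, where 23.7% of 18417 genes were higher and 19.2% lower. CD68 was among the 6, with 1.56. The part that human RNA bound to mouse probes has in these differences was not tested.

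Chemokine genes were called in both directions, while complement genes that were called were all higher. Of 23 chemokine genes 9 were higher and 4 lower, where 15.1% and 23.7% of all genes were. The lower count is thus not above the share of all genes. The median of the chemokine list was 0.32, which fell to -0.01 without SF295. The higher ones were Ccl12, Ccl2, Ccl7, Ccl8 and Ccl9, which bind receptors of monocytes, Pf4, Ccl17, Cxcl13 and Cxcl10. The lower ones were the eosinophil chemokine Ccl11 (-0.85), Cxcl14 (-0.47), Cx3cl1 (-0.39) and the neutrophil chemokine Cxcl5 (-0.32). Of 12 complement genes 7 were higher and 0 lower, among them properdin (Cfp), a stabiliser of the alternative pathway, which differed by 0.89 (SE 0.11, limma adjusted p = 3.92e-05) with every array apart. C4b, a component of the classical pathway, differed by 0.83 (SE 0.14, limma adjusted p = 0.000489). In the block fit limma called 2 of the 23 chemokine genes and 1 of the 12 complement genes.

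Interferon response genes were higher, but this rested on U118 and SF295. All 21 measured of 25 listed genes were called higher by limma, with a median difference of 0.61 (0.73 with V-4084, where again 21 were higher), and so were all 19 bright genes. The median level of the list was 8.50 in U118 and 8.28 in SF295, against 7.36 in U87M2, 7.55 in DBM2 and 7.49 in U251M2, so U87M2 was the lowest line by this measure. Mx1, an antiviral GTPase, was 7.87, 6.51 and 7.00 in U118 and 7.07 and 7.40 in SF295, while U87M2, at 5.66, 5.55 and 5.91, was not apart from DBM2, at 5.63, 5.74 and 5.49, nor from U251M2, at 5.96, 5.77 and 5.62. Its difference was 0.99 (SE 0.16, limma adjusted p = 0.00026). Oasl1 and Bst2 (tetherin, which holds budding viruses at the cell surface) were apart in every array. Bst2 ran from 8.07 to 8.72 against 7.67 to 7.96 and differed by 0.59 (SE 0.07, limma adjusted p = 2.16e-05). With the line as a random block 0 of 21 were called, and without U87M2 20 of 21 were apart in every array. Of 14 with a human gene of the same symbol, 1 was higher and 8 lower on the human arrays.

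Genes of antigen presentation followed that pattern of lines only in part. Of 11 MHC class I pathway genes 7 were higher and 2 lower, where 15.1% and 23.7% of all genes were. B2m, the light chain of class I molecules, was 12.42, 12.04 and 12.45 in U118 and 12.21 and 12.23 in SF295, but 11.30, 11.66 and 11.65 in U87M2, within the range of 11.23 to 11.84 of the HGF-low arrays. B2m differed by 0.44 (SE 0.08, limma adjusted p = 0.000828). Of 13 dendritic cell and MHC class II genes 7 were higher and 2 lower. The median level of that list was 8.085 in U118, 7.241 in SF295 and 7.249 in U87M2, against 6.982 in DBM2 and 7.320 in U251M2. Cd209a, a lectin of monocyte-derived dendritic cells, was 9.67, 9.10 and 9.60 in U118 and at most 7.60 on any other array, so its difference of 1.35 (SE 0.13, limma adjusted p = 3.6e-06) rested on 1 line. In the block fit limma called 0 of the 11 and 0 of the 13 genes (adjusted p = 0.376 for B2m). Without DBM2, 1 of the 13 was higher and 1 lower.

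**Figure D3:**
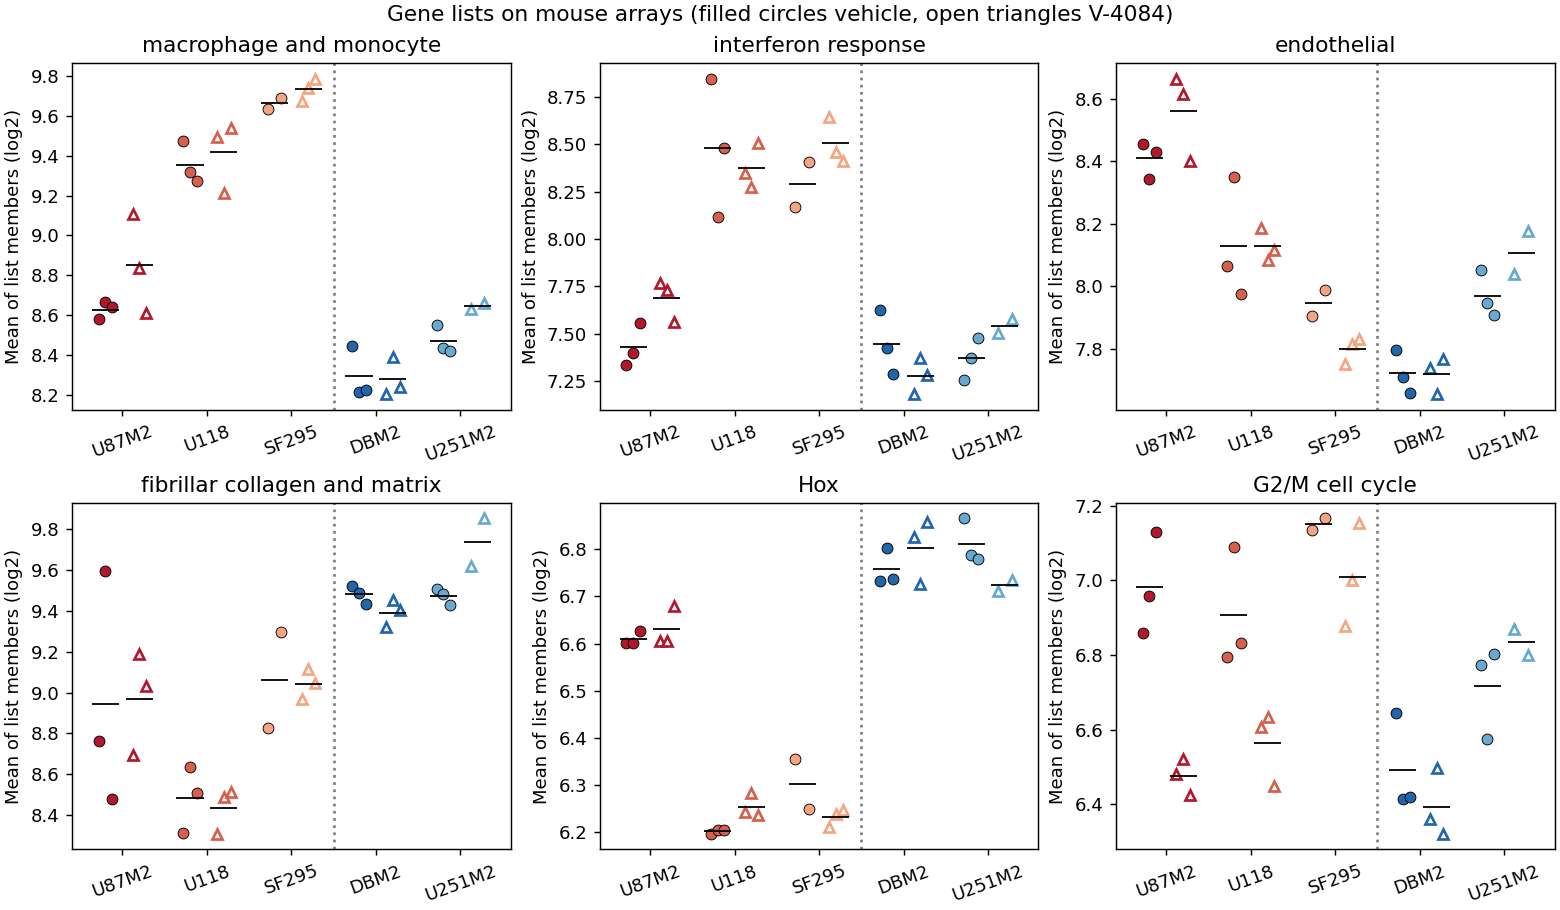
Mean level (log2, vertical axis) of 6 gene lists on each mouse array, by line. Filled circles are vehicle arrays, open triangles V-4084 arrays and short lines their means, and the dotted line divides HGF-high from HGF-low lines; the vehicle circles of the groups do not overlap for macrophage and Hox genes, and U87M2 lies with the HGF-low lines for interferon genes.

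Endothelial genes were higher, most of all in U87M2. Of 20 listed genes 16 were called higher and 0 lower, with a median of 0.31, and 0 were apart in every array. The mean of the list ran from 8.34 to 8.45 in the U87M2 arrays, and SF295, at 7.91 and 7.99, lay within the range of U251M2, from 7.91 to 8.05. Pecam1 (CD31), an adhesion molecule of endothelial cells, was 8.98, 9.19 and 9.09 in U87M2, 8.56, 9.03 and 8.57 in U118 and 8.52 and 8.58 in SF295, against 8.17, 7.99 and 7.79 in DBM2 and 8.55, 8.51 and 8.52 in U251M2. It differed by 0.53 (SE 0.08, limma adjusted p = 0.000224). Kdr, the main VEGF receptor, ran from 7.80 to 8.38 against 7.23 to 7.95 and differed by 0.51 (SE 0.08, limma adjusted p = 0.000223). Without DBM2, the lowest line, 7 of 20 were called, and with the line as a random block 0 were. With a further quantile normalization 10 of 20 were called, and of 18 bright genes 15 were. On the V-4084 arrays 10 were higher and 0 lower.

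Of 18 angiogenesis genes 5 were higher and 5 lower, with a median of 0.06, beside 15.1% and 23.7% of all genes. Vegfa, the ligand of Kdr, fell by 0.46 (SE 0.07, limma adjusted p = 0.000114) with every array apart, and Angpt1, a Tie2 ligand that steadies vessels, fell by 0.56 (SE 0.08, limma adjusted p = 6.19e-05). Angpt2, which opposes it, was higher by 0.65 (SE 0.18, limma adjusted p = 0.0122). Without U87M2, 1 gene of the list was higher and 5 lower. Of 18 hypoxia and glycolysis genes 1 was higher and 5 lower, the lower ones including Slc2a1, the glucose transporter Glut1, at -0.47. None of either list was called in the block fit.

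The lower genes of widest gap held several products of pericytes, fibroblasts and matrix. Tnc (tenascin C), a matrix protein of wounds and tumour stroma, averaged 9.77 ± 0.62 (SD, n = 3) in U87M2, 7.71 ± 0.39 (n = 3) in U118 and 9.60 ± 0.35 (n = 2) in SF295, against 12.26 ± 0.05 (n = 3) in DBM2 and 10.60 ± 0.13 (n = 3) in U251M2. The highest HGF-high array, of U87M2, read 10.43 and the lowest HGF-low array, of U251M2, 10.47, so the groups met without overlap. The difference was -2.40 with vehicle and -2.93 (SE 0.08, limma adjusted p = 3.98e-12) with V-4084. Pdgfrb, the receptor by which pericytes and fibroblasts answer platelet-derived growth factor, ran from 8.30 to 9.11 in the HGF-high arrays and from 9.61 to 10.48 in the HGF-low arrays. It differed by -1.29 with vehicle and by -1.48 (SE 0.09, limma adjusted p = 2.29e-08) with V-4084.

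Tfpi2, an inhibitor of plasmin and other proteases held in the matrix, ran from 6.49 to 7.25 against 8.01 to 9.33, a difference of -1.81 with vehicle and of -2.02 with V-4084 (SE 0.11, limma adjusted p = 5.09e-09). Fn1 (fibronectin) ran from 9.95 to 11.62 against 11.77 to 12.16, and its difference was -1.25 with vehicle and -1.53 with V-4084 (SE 0.14, limma adjusted p = 1e-06). The spread of Fn1 was wide in U87M2, whose arrays read 10.45, 11.62 and 10.02. Col6a3, a chain of collagen VI, ran from 8.37 to 9.28 against 9.70 to 10.52. Col15a1, a collagen of the basement membrane zone, and Nrep, a gene of regenerating tissue, ran from 7.87 to 8.26 against 8.91 to 9.57 and from 8.17 to 8.57 against 9.24 to 10.17.

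Fibrillar collagen and matrix genes were lower as a list. Of 21 measured genes 18 were lower and 2 higher, with a median of -0.69, and 5 were apart in every array (Tnc, Fn1, Col6a1, Col6a2 and Bgn). The means of the list overlapped, from 8.31 to 9.59 in the HGF-high arrays and from 9.43 to 9.52 in the HGF-low arrays. The highest of all was U87M2 repeat 2, at 9.59. On the V-4084 arrays the counts were again 18 and 2, and all 21 were bright genes. Col1a2, a chain of collagen I, fell by 0.76 (SE 0.13, limma adjusted p = 0.000571) and Col6a1 by 0.95 (SE 0.09, limma adjusted p = 3.6e-06). The higher ones were Eln (elastin) at 0.29 and Ogn (osteoglycin), a small proteoglycan, at 1.07. In the block fit limma called 2 of 21, both lower. The contrast over arrays, repeated without U118, the line with the lowest median, called 14 lower and 0 higher.

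The same symbols on the human arrays went the other way. Of the 21 matrix genes, 17 were higher and 3 lower in the HGF-high lines on the human arrays. For Col6a3 the difference was -1.31 on the mouse arrays and 3.39 on the human arrays, for Pdgfrb -1.29 and 2.65, for Tfpi2 -1.81 and 1.54, and for Tnc -2.40 and 0.85. Of the 15 lower genes of widest gap, 7 (Tfpi2, Nrep, Pdgfrb, Col15a1, Col6a3, Tnc and Fn1) were called in the opposite direction on the human arrays and 8 in the same direction.

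**Figure D4:**
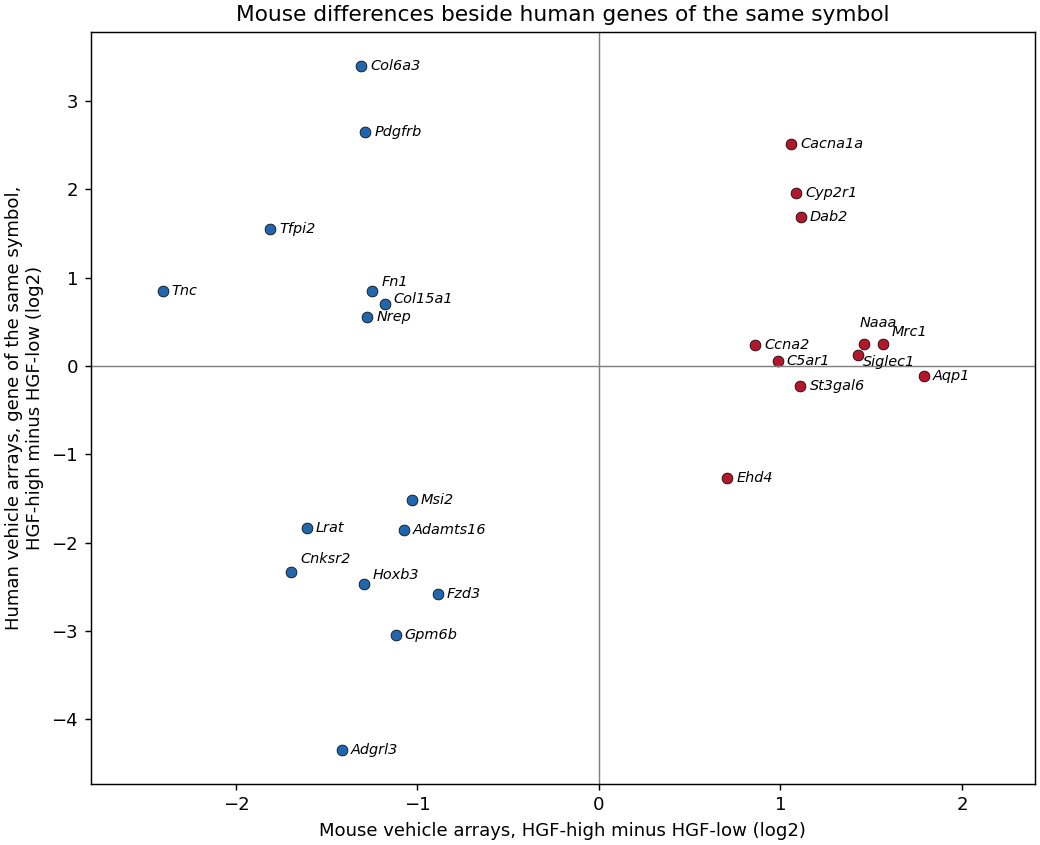
Difference of HGF-high minus HGF-low lines (log2) on mouse vehicle arrays (horizontal axis) and on human vehicle arrays for the gene of the same symbol (vertical axis). Points are the 11 higher (red) and 15 lower (blue) genes of widest gap that had a human gene of the same symbol; the matrix genes Col6a3, Pdgfrb, Tfpi2, Tnc, Fn1 and Col15a1 lie at upper left, while Adgrl3, Gpm6b and Hoxb3 lie at lower left.

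Fibroblast and pericyte genes were lower in part. Of 15 fibroblast genes 9 were lower and 1, Dpt (dermatopontin), was higher, at 1.12, and in the block fit 1 of the 15 was called. The median was -0.52, but without DBM2 it was -0.06, with 3 genes lower and 3 higher. The means of the list overlapped, from 8.01 to 8.92 in the HGF-high arrays and from 8.44 to 9.13 in the HGF-low arrays. Fap, fibroblast activation protein, fell by 0.88 (SE 0.13, limma adjusted p = 0.000136; adjusted p = 0.211 in the block fit). Of 15 pericyte and smooth muscle genes 5 were lower and 1 higher with vehicle, and 9 were lower and 1 higher with V-4084. The vehicle count is near the 23.7% of all genes that were lower, the list means overlapped, and 2 of 15 were called in the block fit. Besides Pdgfrb, Cspg4 (NG2), a proteoglycan of pericytes, was apart in every array, from 6.87 to 7.36 against 7.82 to 8.24, and fell by 0.85 (SE 0.08, limma adjusted p = 1.56e-06; adjusted p = 0.0101 with the line as a random block). Acta2, smooth muscle actin, fell by 0.52 (SE 0.08, limma adjusted p = 0.000201). Rgs5, another pericyte gene, was higher by 0.62 (SE 0.18, limma adjusted p = 0.0159), and differed by -0.30 without DBM2.

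Proteases of the matrix and their inhibitors were lower in 9 of 17 genes and higher in 3, where 23.7% and 15.1% of all genes were. In the block fit 1 of 17 was called. Mmp10 (stromelysin 2) ran from 5.88 to 6.51 against 6.72 to 7.95 and fell by 1.08 (SE 0.13, limma adjusted p = 1.65e-05; adjusted p = 0.053 with the line as a random block). Adamts4 and Adamts12, which cut matrix proteoglycans, fell by 0.92 and 0.68 and were apart in every array. Timp1, an inhibitor of these enzymes, was 10.45, 10.46 and 10.45 in DBM2, 9.37, 9.05 and 8.71 in U251M2 and as low as 7.46 in U118. It overlapped between groups, since U87M2 repeat 2 read 9.28, and fell by 1.36 (SE 0.12, limma adjusted p = 1.21e-06). The 3 higher were the macrophage elastase Mmp12 (0.50), Mmp3 (0.60) and the lysosomal cathepsin Ctss (0.25). Without DBM2, 5 were lower and 2 higher.

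Of 13 basement membrane genes 7 were lower and 1 higher, where 23.7% and 15.1% of all genes were, and 1 was called in the block fit. The means of the list overlapped, from 8.24 to 8.85 in the HGF-high arrays and from 8.54 to 8.84 in the HGF-low arrays. Nid1 (nidogen), which links laminin to collagen IV, fell by 0.54 (SE 0.09, limma adjusted p = 0.000493; adjusted p = 0.169 in the block fit) with every array apart. The higher one, Hmcn1 (hemicentin), differed by 2.60, the widest of any list member, but it did not part the lines. It was 10.60, 10.57 and 10.50 in U118 and 8.56, 8.54 and 9.18 in U87M2, against 6.18 ± 0.25 (SD, n = 2) in SF295, which lay below the DBM2 arrays at 6.99, 6.62 and 6.38. Among 15 targets of TGF-beta, a growth factor that induces matrix genes, 8 were lower and 1 higher, including Ccn2 at -0.91 and Inhba at -1.06, and 1 of the 15 was called in the block fit.

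Hox genes, transcription factors that hold the body position of a cell, were lower on the HGF-high arrays. Of 37 measured genes 28 were lower and 1, Hoxd8, was higher, with a median of -0.32, and 9 were apart in every array. The mean of the list ran from 6.20 to 6.63 against 6.73 to 6.87 without overlap, with U118 lowest and U87M2 nearest to the HGF-low lines. Of the 18 genes above the platform median 15 were lower. Hoxb3 was 8.45, 8.35 and 8.38 in U87M2, 7.94 ± 0.06 (SD, n = 3) in U118, and 8.20 and 8.15 in SF295. In DBM2 it was 9.19, 9.76 and 9.79, and in U251M2 9.32, 9.43 and 9.30. Hoxb3 differed by -1.29 with vehicle and by -1.54 with V-4084 (SE 0.10, limma adjusted p = 2.84e-08). With the line as a random block 5 of 37 were called lower by limma.

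Hox genes moved the same way on the human arrays, unlike the matrix genes. Of 26 Hox genes with a human gene of the same symbol 18 were lower and 1 higher there. Human HOXB3 differed by -2.47, HOXB2 by -1.63 and HOXC9 by -1.09, beside -0.98 for each of Hoxb2 and Hoxc9 on the mouse arrays. Hox genes are alike between the species in much of their sequence. The part that human RNA bound to mouse probes has in the Hox difference was not tested.

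Neural genes of the widest gap showed the same. Adgrl3 (latrophilin 3), an adhesion receptor of neurons, ran from 4.90 to 5.39 against 6.40 to 6.86 and had the widest gap of the lower genes. Its HGF-high values lay below the platform median of 6.49, and its HGF-low values on both sides of it. Its difference was -1.42 with vehicle, -1.49 with V-4084 (SE 0.10, limma adjusted p = 4.67e-08) and -4.34 on the human arrays. Gpm6b, a membrane protein of glia and neurons, differed by -1.12 on the mouse and -3.05 on the human arrays. Cnksr2, a scaffold of synapses, differed by -1.69 and -2.33, and Msi2, an RNA-binding protein of progenitor cells, by -1.03 and -1.51. Lrat, an enzyme of vitamin A storage, Adamts16 and the Wnt receptor Fzd3 also went the same way on both platforms. How far human RNA bound to mouse probes enters the mouse differences of these genes was not tested. Of 15 glial and neural genes 8 were lower and 0 higher on the mouse arrays, where 23.7% and 15.1% of all genes were. On the human arrays 7 of 14 were lower and 1 higher, where 19.2% and 23.7% of all genes were. Gfap, the filament of astrocytes, fell by 0.30 and Nes (nestin), a filament of progenitors and of growing vessels, by 0.93 (SE 0.15, limma adjusted p = 0.000278; adjusted p = 0.213 in the block fit). In the block fit 1 of the 15 was called, and it was Cnksr2. Cnksr2 is also among the 8 lower genes and was chosen above by its gap on these same arrays, so these counts partly restate that choice. Only 4 of these 15 genes passed the platform median on average, and 1 of the 4 was lower.

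Over all genes separated on the mouse arrays, the human arrays more often went the same way than the opposite way. Of the 230 separated upward 209 had a human gene of the same symbol, and 135 (64.6%) were called higher and 17 (8.13%) lower, where 25.8% and 20.1% of all 14333 shared symbols were. Of the 359 separated downward 296 had one, and 173 (58.4%) were called lower and 32 (10.8%) higher, where 20.1% and 25.8% were. The mouse and human arrays compare the same lines, so this is a description with no test. How far human RNA bound to mouse probes enters these shares was not tested.

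Genes of the G2 and M phases of the cell cycle were higher with vehicle, and few were with V-4084. Of 19 genes 16 were higher and 0 lower with vehicle, with a median of 0.42, and 2 were higher and 1 lower with V-4084, with a median of 0.06. Mki67, the Ki-67 antigen of dividing cells, was 7.87, 8.09 and 8.22 in U87M2, 8.15, 8.47 and 8.18 in U118 and 8.46 and 8.62 in SF295. In DBM2 it was 7.43, 7.04 and 7.01, and in U251M2 7.62, 7.33 and 7.84. The groups met without overlap, and Mki67 differed by 0.91 (SE 0.10, limma adjusted p = 6.79e-06; adjusted p = 0.0378 with the line as a random block). With V-4084 it differed by 0.34 (SE 0.11, limma adjusted p = 0.0271). Of 11 bright genes 8 were higher with vehicle. Without DBM2, 7 of the 19 were called higher with vehicle, and with the line as a random block 1 was. On the human arrays 7 of the 19 genes of the same symbol were higher and 4 lower, where 23.7% and 19.2% of all genes were. The part that human RNA bound to mouse probes has in the difference of this list was not tested.

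The change of the group difference with V-4084 was tested on all 28 mouse arrays as an interaction. limma called 3 of 19938 genes (0.0150%), all with a more negative difference with V-4084, and 1700 (8.53%) had an unadjusted p under 0.05. Plk1, a kinase that starts mitosis, was 8.59, 8.34 and 8.69 in U87M2 with vehicle and 7.67, 7.87 and 7.65 with V-4084, while in U251M2 it was 8.07, 7.98 and 7.79 and then 8.02 and 8.26. Its interaction was -0.68 (limma adjusted p = 0.0387). Adamts1, a secreted protease, had an interaction of -0.68 (limma adjusted p = 0.0148) and was 7.68, 7.87 and 7.84 in U87M2 with vehicle and 6.54, 6.65 and 6.71 with V-4084. Kcng1, a potassium channel subunit, had -0.50 (limma adjusted p = 0.0148), and went from 9.49, 9.43 and 9.44 to 8.58, 8.52 and 8.50 in U87M2, while in U118 it was 8.37, 8.51 and 8.47 with vehicle and 8.45, 8.29 and 8.36 with V-4084. For the G2 and M list the median interaction was -0.33, where that of all genes was 0.03, and 1 of 19 was called.

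Muscle and fat genes were high in some arrays. The mean of 20 skeletal muscle genes was 8.51, 9.74 and 8.38 in U118 and 8.86 in DBM2 repeat 3, and at most 7.45 on the other vehicle arrays. Of these genes 1, Pvalb (parvalbumin), was called higher, at 0.91 (SE 0.33, limma adjusted p = 0.0399), and it differed by -0.09 without U118. Of 12 adipocyte genes 8 were higher and 0 lower, and 2 were higher without U118, whose list means, from 7.64 upward, were the highest of the vehicle arrays. In the block fit 0 of the 12 were called. Adipoq (adiponectin) was 8.08, 8.12 and 8.32 in U118 and at most 7.37 on the other arrays. Without U118, but with DBM2 repeat 3 kept, the macrophage list had 17 higher of 19 and the matrix list 14 lower of 21. The part of muscle and fat in these and other results was not tested.

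Counts for the other lists were as follows, where 15.1% of all genes were higher and 23.7% lower. Several of these counts are near those shares and say little about the list. Of 16 natural killer and T cell genes 6 were higher, among them Ccl5, Klrk1, Nkg7 and Ncr1 of natural killer cells, and 2 were lower, the T cell genes Cd3e (-0.25) and Cd8a (-0.19). Nkg7, a granule protein, differed by 0.74 (SE 0.17, limma adjusted p = 0.00392). Of 10 mast cell genes 3 were higher and 0 lower, and 0 were called without U118. Of 14 neutrophil genes 1 was higher and 4 lower. The lower ones included Mmp9, a gelatinase also made by other cells, which was 8.62, 10.28 and 8.77 in DBM2 and at most 7.57 elsewhere. Of 10 B cell and plasma cell genes 0 were higher and 1 lower, and of 7 lymphatic endothelial genes 0 and 2. Of 9 Schwann and nerve genes 1 was higher and 3 lower, and the list mean was at most 6.72 in the HGF-high arrays and at least 6.79 in the HGF-low arrays. Of 14 keratinocyte and hair genes 0 were higher and 7 lower, and of 4 erythroid genes 0 and 3, while after a further quantile normalization the lower counts of the last 2 lists were 1 and 0. Of 15 cholesterol synthesis genes 2 were higher and 3 lower. In the block fit 1 Schwann and nerve gene was called among all the lists of this paragraph.

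The genes at the border of separation between line means had small gaps. Plekho2 and Sp100 lay just inside among the higher genes and Ppil3 and Tmco1 just outside, with group differences of 0.28, 0.86, 0.16 and 0.33. Clec4g and Fbxo43 lay just inside among the lower genes and Krtap3-3 and Tectb just outside, with differences of -0.24, -0.31, -0.25 and -0.24. Single arrays of all 8 genes overlapped between the groups.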

How the data were processed

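The 56 arrays are Affymetrix whole-transcript gene arrays, and 200 ng of RNA per array was labelled. Each deposited value is the log2 intensity of a probe set, for which the submitters' processing notes name RMA and Partek without versions. It was used as the authors deposited it. Of 35556 mouse probe sets, 21789 name 1 gene, 1621 several and 12146 none in the platform annotation, and only the first kind was used, with the brightest probe set of a gene, which gave 19938 mouse genes. The human arrays gave 18417 genes in the same way. Arrays have no read depth, and their number limits the precision.

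Groups came from the array titles. In R 4.3.3, limma 3.58.1 (lmFit, eBayes) fitted line means over the 14 vehicle arrays, and the contrast took the mean of 3 HGF-high lines minus the mean of 2 HGF-low lines, with 9 residual degrees of freedom. A gene was called at a two-sided Benjamini-Hochberg adjusted p under 0.05 over all genes. Further fits used the line means alone (3 residual degrees of freedom), the line as a random block (duplicateCorrelation, statmod 1.5.0), the V-4084 arrays and the interaction over 28 mouse arrays. The code was tested on simulated data. The groups, the 30 gene lists and the naming rules were chosen with earlier results of these data known. Several lists hold genes of widest gap, among them Mrc1, Ccl12, C5ar1, Col15a1, Hoxb3 and Cnksr2. Counts of such lists are not independent of the choice by gap. Named genes are Hgf and Met, the 15 of widest gap in each direction among named protein genes, 2 on each side of the border, interaction calls and up to 4 members of each list. Members named beside a list's count were added to these from the list itself. In the lists, 5 older symbols were updated. The 14 human V-4084 arrays were not used here, and 3 of them carry labels that disagree on the line.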

Additional observations from a re-analysis of the deposited data

Results flagged for a closer look

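In 9 of 304 groups tested over 152 named genes, 1 array lay apart from the others of its group, and chance alone gives about 1 in 20. Among the HGF-low arrays, the low value lay in DBM2 repeat 2 for Ehd4 (8.364) and Tectb (5.61), in DBM2 repeat 3 for Plekho2 (7.685) and in U251M2 repeat 3 for C1qc (9.077), and the high value in U251M2 repeat 1 for Cd68 (9.573). Among the HGF-high arrays, U87M2 repeat 2 was high for Prox1 (6.659), U87M2 repeat 1 low for Rgs5 (6.18), U118 repeat 1 low for S100b (5.378) and SF295 repeat 2 high for Ptprz1 (4.789).

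The difference of HGF-high minus HGF-low lines changed with V-4084 by limma's interaction test in 3 genes, Adamts1 (-0.679), Kcng1 (-0.504) and Plk1 (-0.679).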

How the results depend on the processing

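Over vehicle arrays, the 4716 genes lower in HGF-high lines were 2767 after a further quantile normalization, 2443 after median centring, 2037 among genes above the platform median, 2336 without U118, 2332 without SF295, 1957 without U251M2 and 1145 with arrays weighing equally, and the 3005 higher were 1937 without SF295, 2001 without DBM2 and 848 with arrays weighing equally. With the line as a random block they were 98 and 66. The 0 calls on line means became 136 without U87M2, 3 without SF295, 1 without DBM2, 13 without U251M2 and 1 with a trend in eBayes. The 230 genes apart upward in every array were 359 after centring and 1659, 368, 355, 507 and 863 without U87M2, U118, SF295, DBM2 and U251M2, and the 359 apart downward were 199 among genes above the platform median and 2856, 1355 and 963 without U87M2, DBM2 and U251M2. Line means lay above in 4517, 3104 and 3606 genes without U87M2, DBM2 and U251M2, and below in 1305 among genes above the platform median and in 9345 and 7234 without U87M2 and DBM2. The interaction gave 8 calls among genes above the platform median. Leaving a line out leaves fewer lines to separate, and the cause of the other changes was not tested. Differences changed sign for Kcng1 without U87M2 (-0.345), Pvalb without U118 (-0.091), and Pdpn (0.056) and Rgs5 (-0.296) without DBM2. Leaving out 1 array gave 2362 to 3307 higher and 3245 to 5566 lower calls (lowest without SF295 repeat 2, highest without SF295 repeat 1), 0 to 0 on line means, 237 to 363 and 373 to 605 genes apart in every array, 1689 to 2175 and 3536 to 4489 in line means, and, with V-4084, 1970 to 2859 higher and 1537 to 2925 lower. Repeat numbers did not pair the arrays (26 pairs, r from -0.29 to 0.308, 6 above 0.1), and a replicate block gave 2768 higher and 4311 lower calls and 2 interaction calls.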
